A study of Homo sapiens with 6 samples.

Results

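The genes described here encode fibronectin and 9 matricellular proteins of lung fibroblasts, namely *FN1*, *TNC*, *THBS1*, *THBS2*, *THBS3*, *SPARC*, *POSTN*, *TGFBI*, *CCN1* and *CCN2*. They were chosen by name, as the thrombospondins, tenascin C, periostin, SPARC, TGFBI, CCN proteins and fibronectin, rather than by a threshold on measured values. All 10 were found in the count table and all 10 passed the filter of 10 summed counts, among 58676 gene identifiers in all and 19072 genes tested.

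Fibronectin is a large secreted glycoprotein that cells assemble into fibrils through integrins, and it serves as the first scaffold on which collagen and other matrix proteins are laid down. Matricellular proteins are secreted into the same matrix but are thought to act less as structural parts than as modulators, since they bind growth factors, proteases, integrins and collagen and so change how a cell adheres, migrates and responds to TGF-β. In the lung they are abundant during development and wound repair, and they are well known from fibrotic tissue, where fibroblasts make much of the matrix.

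RNA-seq of polyA RNA had been performed in MRC5 cells, an established human fetal lung fibroblast line grown in medium with bovine serum. The fibroblasts were exposed for 24 h to conditioned media (CM) from ATII cells, a human alveolar type II epithelial line with a transgene through which 4-hydroxytamoxifen (4-OHT) induces RAS activation. In the control group the CM came from these ATII cells without 4-OHT (control ATII CM, n = 3), and in the other group from the same cells after 24 h with 4-OHT (4-OHT ATII CM, n = 3). The comparison asks how fibroblast transcription differs when the epithelial cells that made the CM have active RAS. Both groups share the fibroblast line, the epithelial line and its transgene, and neither is untreated medium. Effects of RAS activation in the epithelial cells and of 4-OHT carried over in the CM cannot be told apart in this design. The labels number the samples within a group but do not say whether they were separate cultures, so the p-values measure the spread between these samples, which may be technical.

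Total counts per library ranged from 17691849 to 26389449, and the lowest total belonged to control replicate 2. Values are given as CPM, the share of a library's counts scaled to a common total, after TMM scaling (edgeR), with scaling factors between 0.992 and 1.01. A gene was called a DEG when its Benjamini-Hochberg adjusted p from edgeR's quasi-likelihood test was below 0.05 over all 19072 genes. In total 1090 genes (5.72%) were DEGs, 563 higher (2.95%) and 527 lower (2.76%) with 4-OHT ATII CM, and in 4208 genes (22.1%) the values of the 3 control and the 3 4-OHT libraries did not overlap. All 9 fibroblast markers examined were expressed, and of these *COL3A1*, *PDGFRA*, *LUM* and *DCN* were DEGs in the higher and *VIM* in the lower direction, the call of *VIM* being lost in 6 of 16 alternative settings, among them without control replicate 3 or any 1 of the 4-OHT replicates. The surfactant gene *SFTPA1*, the lung epithelial factor *NKX2-1* and the endothelial genes *PECAM1* and *CDH5* had 0 counts in all 6 libraries, and the leukocyte genes *PTPRC*, *CD68* and *LYZ* had 4 counts or fewer each in total. The summed level of the 7 epithelial markers that could be tested, of 12, was 93.7 to 99.7 CPM in control and 91.6 to 97.6 CPM in 4-OHT libraries, nearly all of it from the keratins *KRT18*, *KRT8* and *KRT19*, and none of the 7 was a DEG.

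Control replicate 2 stood apart from the other 2 control libraries in a way that followed gene length. Across genes above a low level, split into 5 equal classes by exon length, its median log2 difference from the mean of control replicates 1 and 3 went from 0.05 in the shortest class to -0.086 in the longest, in which 75.8% of genes were lower. *FN1*, with 17315 bases of merged exons, is one of the long genes. Each of the 10 genes is therefore given below with and without it, and the part of RNA quality or library preparation in that difference was not tested.

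**Figure D1:**
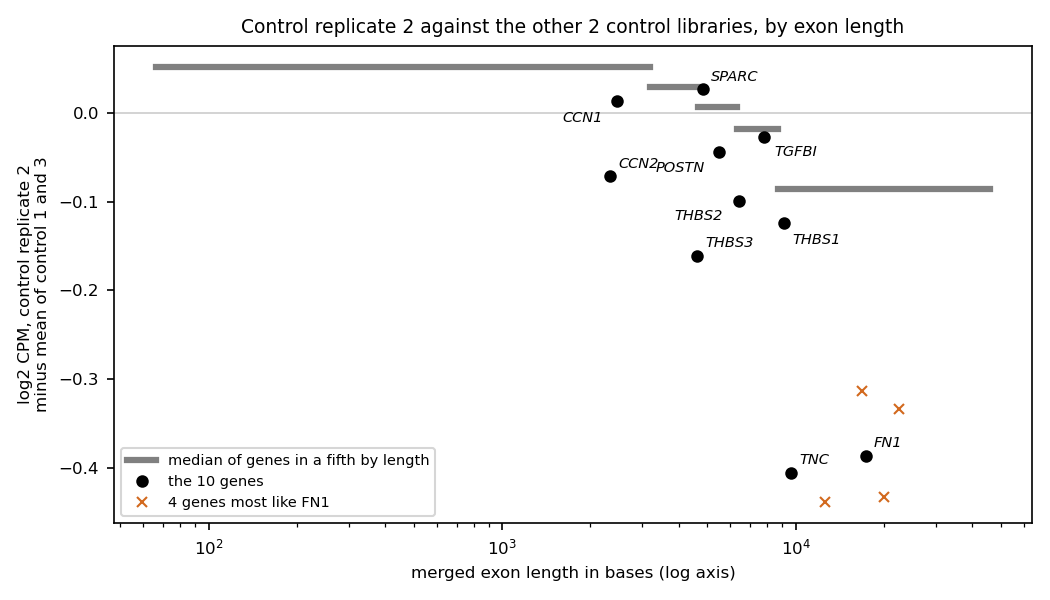
Difference of control replicate 2 from the mean of control replicates 1 and 3 (vertical axis, log2 CPM) against merged exon length in bases (log axis). Grey bars are the medians of genes in each of 5 length classes, black circles the 10 genes and orange crosses 4 genes whose pattern was among the most like that of *FN1*. *TNC* and *FN1* lie near -0.4, far below the median of -0.086 of the longest class.

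Of the 10 genes, 4 were DEGs, against 5.72% of all genes tested. *TGFBI* and *THBS1* were higher with 4-OHT ATII CM, and *FN1* and *CCN1* were lower. Their log2 fold changes had a median of -0.0043, beside -0.0020 over all genes tested, with 5 positive and 5 negative values. No change exceeded 20% in the fitted values. The sum of the 10 transcripts was 17655, 15386 and 17354 CPM in control replicates 1 to 3 and 15456, 15743 and 15626 CPM in 4-OHT replicates 1 to 3. Control replicate 2 lay below the 4-OHT libraries and the other 2 controls above them, so these sums overlapped. Without *FN1*, the remaining 9 summed to 10151, 9734 and 10080 CPM in control and 9919, 10326 and 10187 CPM in 4-OHT libraries, which also overlapped. Differences in these bulk samples could come from fewer cells expressing a gene or from less RNA per cell, and these cannot be told apart.

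**Figure D2:**
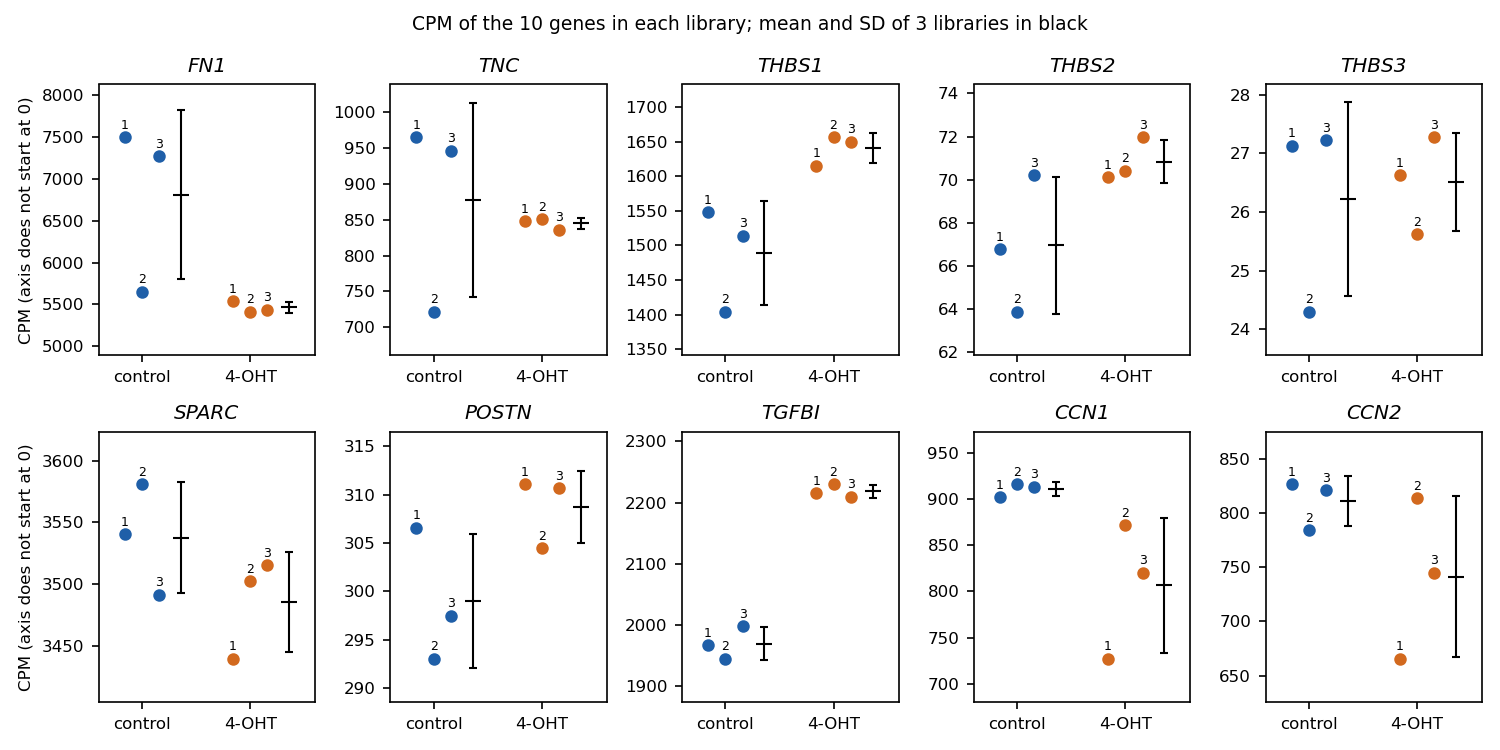
CPM of each of the 10 genes (vertical axes, each with its own range not starting at 0) in the 3 control (blue) and 3 4-OHT (orange) libraries, numbered by replicate, with the mean and SD of each group in black. The groups are separate for *FN1*, *THBS1*, *TGFBI* and *CCN1* and overlap for the other 6 genes.

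*FN1* (ENSG00000115414, chr2:215360440-215436172 on the minus strand of GRCh38), the fibronectin gene, had the largest difference of the 10. Its level was 7503, 5651 and 7274 CPM in control replicates 1 to 3 and 5538, 5416 and 5440 CPM in the 4-OHT libraries. All 3 4-OHT values lay below the control values, but control replicate 2 sat close to the 4-OHT libraries, at 0.765 of the other 2 controls. The mean fell from 6810 ± 1009 to 5465 ± 64.5 CPM (SD, n = 3), a log2 fold change of -0.32 (SE 0.0684, 95% interval -0.46 to -0.17) with an adjusted p of 0.0107 in edgeR's test. The fitted level thus fell by 19.8%. Without control replicate 2 the log2 fold change was -0.43 with an adjusted p of 2.0e-10 (edgeR), whereas the adjusted p was 0.0542 without control replicate 3, 0.0641 without 4-OHT replicate 2 and 0.0891 with DESeq2 on all 6 libraries. With a correction for gene length the log2 fold change was -0.26 (adjusted p of 0.0007, edgeR). *FN1* made up 42.5%, 36.7% and 41.9% of the summed CPM of the 10 genes in the control libraries, and 35.8%, 34.4% and 34.8% in the 4-OHT libraries.

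The promoter of *FN1* is shown with those of *THBS1* and *CCN2* because the 3 genes differed in direction or in their agreement between libraries, and because each holds at least 1 of the motifs searched. The *FN1* sequence below lies upstream of the exons in the annotation, at chr2:215436173-215436318 (RefSeq, GRCh38.p14, minus strand), and capitals mark TGACGTCA, the full cyclic AMP response element, 183 bases upstream of the RefSeq start.
FN1: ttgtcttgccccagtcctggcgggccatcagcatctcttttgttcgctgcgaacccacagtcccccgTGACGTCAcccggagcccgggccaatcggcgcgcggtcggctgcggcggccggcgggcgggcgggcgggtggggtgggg
This motif was present on either strand in 1.65% of 35116 promoters of the RefSeq table, searched over the 250 bases before each gene start, and among the 9 members with an entry only in *FN1*.

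*TNC* (ENSG00000041982, chr9:115019578-115118257, minus strand) encodes tenascin C, which binds fibronectin and weakens cell adhesion to it. Its level was 966, 722 and 947 CPM in control and 848, 851 and 836 CPM in 4-OHT libraries. The 4-OHT values fell between control replicate 2 and the other 2 controls, so the groups were not separate, and control replicate 2 was at 0.755 of the others. The log2 fold change was -0.056 (SE 0.0729, 95% interval -0.21 to 0.099) with an adjusted p of 0.771 (edgeR). Without control replicate 2 it was -0.18 with an adjusted p of 7.26e-05 (edgeR), and without control replicate 1 it was 0.016. The call and the direction of *TNC* therefore rested on which control library was included.

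The genes whose pattern over the 6 libraries was most like that of *FN1* included *NAV1*, *MAP1B*, *NOTCH2* and *TRRAP*. The likeness was the root mean square difference of centred log2 CPM over these 6 libraries, among 4010 other genes averaging 50 CPM or more, and it lay between 0.0258 and 0.0368. Since this choice used the values in these libraries, the direction of these genes and their low control replicate 2 follow from it and are given as a description. The 4 genes have 12630 to 22453 bases of merged exons, and each was lower in control replicate 2, at 0.738 to 0.805 of the other controls.

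**Figure D3:**
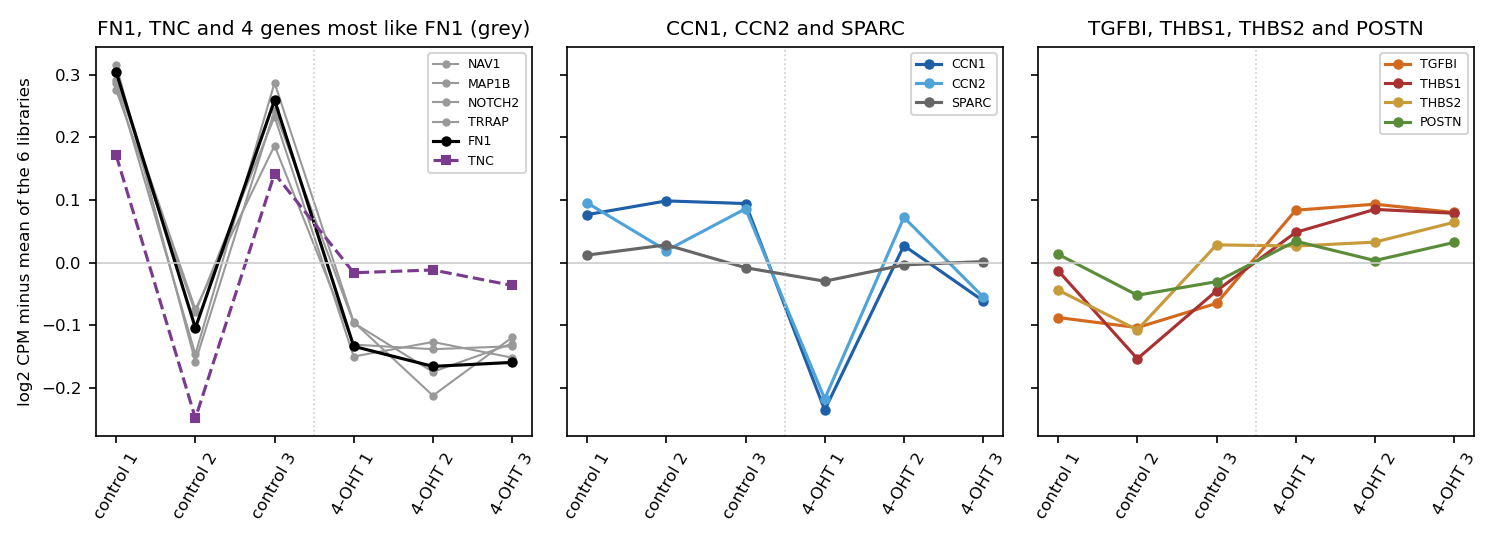
Log2 CPM minus the gene's mean over the 6 libraries (vertical axis) in each library (horizontal axis, control left of the dotted line and 4-OHT right of it), with lines joining the points of a gene only to guide the eye. *FN1* (black) is followed closely by 4 of the genes most like it (grey) and *TNC* (dashed) shares the low control replicate 2, *CCN1* and *CCN2* share a low 4-OHT replicate 1, and *TGFBI* and *THBS1* are higher in all 3 4-OHT libraries.

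The thrombospondins are large calcium-binding glycoproteins. Thrombospondin 1 is known to activate latent TGF-β and to restrain angiogenesis through CD36, and thrombospondin 2 is its close relative. *THBS1* (ENSG00000137801, chr15:39581079-39599466, plus strand) was present at 1548, 1404 and 1514 CPM in control and 1615, 1657 and 1650 CPM in 4-OHT libraries. Every 4-OHT value exceeded every control value, with the widest gap at control replicate 2. The mean rose from 1489 ± 75.1 to 1641 ± 22.2 CPM (SD, n = 3), a log2 fold change of 0.14 (SE 0.0330, 95% interval 0.07 to 0.21) with an adjusted p of 0.0189 (edgeR), or 10.2%. Without control replicate 2 the log2 fold change was 0.10 (adjusted p of 0.0077, edgeR), and the adjusted p was 0.0911 without 4-OHT replicate 2 and 0.101 without 4-OHT replicate 3.

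The upstream sequence of *THBS1* at chr15:39580829-39581078 (RefSeq, GRCh38.p14, plus strand) is given with GGAATG in capitals, the core bound by TEAD factors, the DNA-binding partners of YAP.
THBS1: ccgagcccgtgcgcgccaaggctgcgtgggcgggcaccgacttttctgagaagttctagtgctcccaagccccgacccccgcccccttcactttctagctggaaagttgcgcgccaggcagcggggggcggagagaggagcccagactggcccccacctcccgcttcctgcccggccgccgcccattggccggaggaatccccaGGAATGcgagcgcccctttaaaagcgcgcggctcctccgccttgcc
The match lies 46 bases upstream of the start. GGAATG, searched on both strands, was held by 11.9% of all promoters in the table and by 4 of the 9 members with an entry, *THBS1*, *THBS2*, *SPARC* and *CCN2*.

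*THBS2* (ENSG00000186340, chr6:169215780-169254044, minus strand) was at 66.8, 63.9 and 70.2 CPM in control and 70.1, 70.4 and 72.0 CPM in 4-OHT libraries. Control replicate 3 reached the 4-OHT values, so the groups shared part of their range. The log2 fold change of 0.08 (95% interval -0.0089 to 0.17) had an adjusted p of 0.353 (edgeR). Control replicate 2 was the lowest library, and without it the log2 fold change was 0.049 (adjusted p of 0.561). *THBS3* (ENSG00000169231, chr1:155195588-155209051, minus strand), a pentameric thrombospondin, had 27.1, 24.3 and 27.2 CPM in control and 26.6, 25.6 and 27.3 CPM in 4-OHT libraries. The libraries interleaved, and the log2 fold change was 0.01 (95% interval -0.12 to 0.14, adjusted p of 0.948, edgeR). It turned to -0.035 without control replicate 2 and -0.012 without 4-OHT replicate 3. *THBS3* values are also uncertain because 22.2% of its merged exon length lies opposite exons of *THBS3-AS1* and 3.16% opposite *MTX1*, and no source used here states that the counts kept strand. Counts of *MTX1* came to 57.3% and those of *THBS3-AS1* to 4.34% of those of *THBS3*.

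SPARC, periostin and TGFBI are proteins that bind collagen, and the first is a calcium-binding counter-adhesive protein. *SPARC* (ENSG00000113140, chr5:151661096-151687165, minus strand) was steady across the 6 libraries, with 3541, 3581 and 3491 CPM in control and 3440, 3502 and 3515 CPM in 4-OHT libraries. The groups were interleaved, with a log2 fold change of -0.021 (SE 0.0228, 95% interval -0.070 to 0.027) with an adjusted p of 0.711 (edgeR). Its interval was the narrowest of the 10. Without control replicate 2 the log2 fold change was -0.012 (adjusted p of 0.818, edgeR), and *SPARC* was called in none of the 16 alternative settings.

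*POSTN* (ENSG00000133110, chr13:37562583-37598844, minus strand) encodes periostin, an integrin ligand that promotes collagen cross-linking. Its level was 307, 293 and 297 CPM in control and 311, 304 and 311 CPM in 4-OHT libraries, and the lowest 4-OHT value lay below the highest control value. The log2 fold change of 0.046 (95% interval -0.022 to 0.11) had an adjusted p of 0.523 (edgeR). It was 0.032 without control replicate 2 (adjusted p of 0.632, edgeR), and no alternative setting called it.

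*TGFBI* (ENSG00000120708, chr5:136028895-136063818, plus strand), named for its induction by TGF-β, encodes a fasciclin-domain protein related to periostin and was the member with the most stable difference. Its level was 1967, 1945 and 1998 CPM in control and 2215, 2230 and 2210 CPM in 4-OHT libraries. The groups were well apart, since the spread within each was small beside the gap between them. The mean rose from 1970 ± 26.6 to 2218 ± 10.5 CPM (SD, n = 3), a log2 fold change of 0.17 (SE 0.0241, 95% interval 0.12 to 0.22) with an adjusted p of 0.000441 (edgeR), or 12.6%. All 16 alternative settings called it, with adjusted p between 6.69e-08 and 0.00735, and without control replicate 2 the log2 fold change was 0.16.

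*CCN1* and *CCN2* encode cysteine-rich secreted proteins of the CCN family, also known as CYR61 and CTGF, which bind integrins and are textbook targets of YAP with TEAD factors. *CCN1* (ENSG00000142871, chr1:85580761-85583962, plus strand) was present at 903, 916 and 914 CPM in control and 727, 872 and 821 CPM in 4-OHT libraries. The 3 controls were nearly equal and all above the 4-OHT values, among which replicate 1 was the lowest. The mean fell from 911 ± 7.32 to 807 ± 73.6 CPM (SD, n = 3), a log2 fold change of -0.18 (SE 0.0474, 95% interval -0.28 to -0.074) with an adjusted p of 0.0400 (edgeR). The fitted level fell by 11.4%. The call was lost without 4-OHT replicate 1 (log2 fold change -0.10, adjusted p of 0.146, edgeR), and also without control replicate 1 (0.0704), control replicate 3 (0.0941) or 4-OHT replicate 3 (0.0792). The call held without control replicate 2 (-0.17, adjusted p of 0.0284, edgeR).

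*CCN2* (ENSG00000118523, chr6:131948176-131951373, minus strand) had 827, 784 and 822 CPM in control and 666, 814 and 745 CPM in 4-OHT libraries. Here 4-OHT replicate 2 reached the range of the controls, so the groups were not separate. The log2 fold change was -0.13 (SE 0.0519, 95% interval -0.24 to -0.019) and the adjusted p was 0.195 (edgeR). It was -0.20 without 4-OHT replicate 2, with an adjusted p of 0.0276 (edgeR), and -0.053 without 4-OHT replicate 1, with an adjusted p of 0.608. Leaving out control replicate 2 gave -0.15 (adjusted p of 0.0731, edgeR). Without the filter on low counts the adjusted p was 0.00803 (edgeR).

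The pair moved together among the 4-OHT libraries. In 4-OHT replicate 1, *CCN1* was 0.22 and *CCN2* 0.23 below the mean of the other 2 on the log2 scale, and only 1.68% and 1.52% of 9691 genes above a low level lay at or below those differences. The ratio of *CCN1* to *CCN2* counts was 1.09, 1.07 and 1.10 in 4-OHT libraries and varied more in control, at 1.09, 1.17 and 1.11. In control replicate 2, *CCN1* was the highest of the controls but *CCN2* the lowest. The upstream sequence of *CCN2* at chr6:131951374-131951622 (RefSeq, GRCh38.p14, minus strand) is printed with the TEAD core GGAATG and the TATA motif TATAAA in capitals.
CCN2: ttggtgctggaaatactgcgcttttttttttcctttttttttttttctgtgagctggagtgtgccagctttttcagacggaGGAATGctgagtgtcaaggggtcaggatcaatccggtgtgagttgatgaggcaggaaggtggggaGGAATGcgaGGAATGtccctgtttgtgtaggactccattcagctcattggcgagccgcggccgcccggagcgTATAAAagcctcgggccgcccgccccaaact
GGAATG occurs 3 times, at 169, 104 and 95 bases upstream of the start, and TATAAA at 32. TATAAA was held by 10.7% of all promoters in the table and by 3 of the 9 members with an entry (*CCN2*, *POSTN* and *THBS2*), and TGANTCA, the AP-1 motif, by 6.57% and by *POSTN* alone. *TGFBI*, *TNC* and *THBS3* held none of the 4 motifs searched. *CCN1* was the member with no entry in the table.

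**Figure D4:**
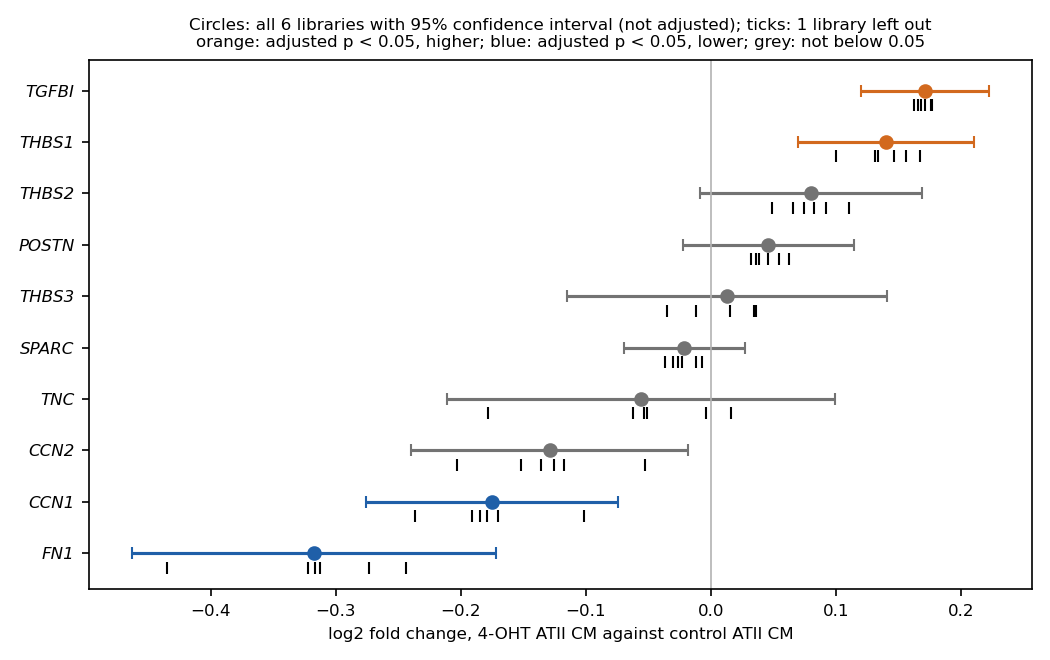
Log2 fold change of the 10 genes, 4-OHT against control ATII CM (horizontal axis), with all 6 libraries (circles, unadjusted 95% confidence interval) and with 1 library left out at a time (ticks below each circle). Orange and blue mark adjusted p below 0.05, higher and lower, and grey the rest. *TGFBI* has the tightest ticks, whereas those of *FN1*, *TNC*, *CCN1* and *CCN2* are spread widely.

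Per kilobase of merged exons, *SPARC* had the highest level of the 10, at a mean of 727 CPM per kb, rank 26 among the 19072 genes tested. It was followed by *FN1* at 354, *CCN1* at 350, *CCN2* at 332 and *TGFBI* at 268 CPM per kb. Over the 6 libraries the ranges of each neighbouring pair among these 4 overlapped, whereas the range of *TGFBI* lay below those of *FN1* and *CCN1*. *THBS1* (171), *TNC* (89.4), *POSTN* (55.6), *THBS2* (10.7) and *THBS3* (5.70 CPM per kb) came next without overlap between neighbours. By group means, *FN1* ranked 2 among the 10 in the control libraries and 4 in the 4-OHT libraries. In control replicate 2, however, *FN1* (326 CPM per kb) already lay below *CCN1* (373) and *CCN2* (335). The 4-OHT means of *FN1* (316) and *CCN2* (317 CPM per kb) were nearly equal. Merged exons count every annotated exon of a gene, and by the length of the MANE Select transcript, a choice made after seeing the data, *TGFBI* (772 CPM per kb) moved ahead of *FN1* (731 CPM per kb) and *CCN1* (377 CPM per kb), although the ranges of *TGFBI* and *FN1* over the 6 libraries overlapped.

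**Figure D5:**
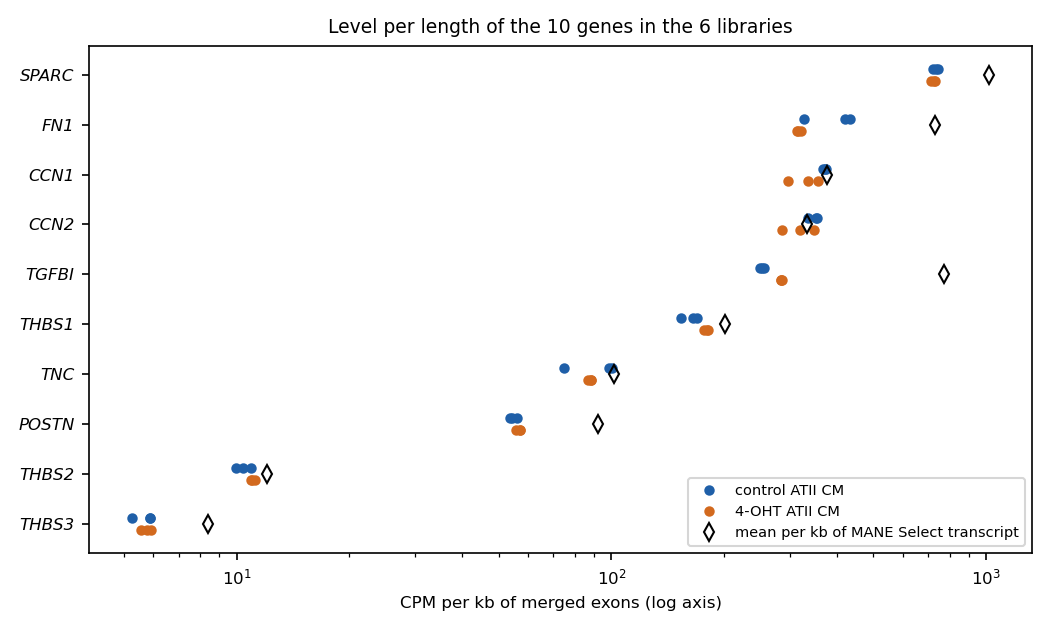
CPM per kb of merged exons (horizontal log axis) of the 10 genes in the 3 control (blue) and 3 4-OHT (orange) libraries, with the mean per kb of the MANE Select transcript as open diamonds. *SPARC* is highest and *THBS3* lowest with either length, and *TGFBI* and *FN1* shift most between the lengths.

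Among 19 further matricellular and related adhesive genes, 14 were tested. Of these, 4 were DEGs in the higher direction and 0 in the lower, against 2.95% and 2.76% of all genes, and the list's median log2 fold change was 0.20, beside -0.0020 over all genes. That median takes in genes with very few counts and uncertain fold changes. Among them were *SPOCK2* (1.83, SE 0.79), *TNXB* (0.53, SE 1.09), *SPARCL1* (0.31, SE 1.03) and, downward, *CCN6* (-1.16, SE 0.94). It therefore does not show a general rise of these genes. *FBLN1*, which encodes the fibronectin-binding fibulin 1, was at 472, 481 and 478 CPM in control and 558, 564 and 551 CPM in 4-OHT libraries, with no overlap (log2 fold change 0.23, adjusted p of 0.0002, edgeR). *FSTL1*, encoding a secreted relative of SPARC, was at 2473, 2423 and 2471 CPM in control and 2726, 2729 and 2767 CPM in 4-OHT libraries (log2 fold change 0.16, adjusted p of 0.0007). Both calls held in all 16 alternative settings. The other 2 DEGs of the list depended more on single libraries. *CCN4*, of the same family as *CCN1* and *CCN2*, rose by 0.17 on the log2 scale (adjusted p of 0.0132, edgeR), and its call was lost without control replicate 3 or 4-OHT replicate 2. *VTN*, the gene of the adhesive protein vitronectin, was low in these cells, at 5.20, 4.14 and 6.44 CPM in control and 6.99, 7.50 and 8.75 CPM in 4-OHT libraries (log2 fold change 0.55, adjusted p of 0.0339), and its call was lost without control replicate 1 or 2 or 4-OHT replicate 2 or 3.

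The receptor list held 17 integrin subunits and other cell-surface proteins that bind fibronectin, thrombospondins, periostin, SPARC or CCN proteins, of which 15 were tested. With edgeR, 3 were higher and 2 lower, against 2.95% and 2.76% of all genes, and the median log2 fold change was 0.055, beside -0.0020 over all genes. *ITGA8*, whose product pairs with integrin β1 and binds fibronectin and tenascin C, was at 144, 130 and 146 CPM in control and 167, 170 and 173 CPM in 4-OHT libraries (log2 fold change 0.28, adjusted p of 0.0008, edgeR). *ITGB3*, the β3 partner of integrin αV, was at 25.3, 25.3 and 24.4 CPM in control and 31.6, 33.0 and 33.2 CPM in 4-OHT libraries (0.38, adjusted p of 0.0003). *ITGA3*, whose product with β1 binds laminins and thrombospondin 1, was lower, at 246, 256 and 256 CPM in control and 199, 190 and 192 CPM in 4-OHT libraries (-0.38, adjusted p of 1.13e-05). These 3 calls held in all 16 alternative settings. Those of *ITGB8* (0.28, adjusted p of 0.0379) and *ITGB5* (-0.12, adjusted p of 0.0399), which both pair with αV, were lost without any 1 of the 4-OHT replicates or without control replicate 1, that of *ITGB8* also without control replicate 2 and that of *ITGB5* also without control replicate 3 and with the replicate block (edgeR). The subunits of the classical fibronectin receptor, *ITGA5* (-0.061, adjusted p of 0.286) and *ITGB1* (0.064, adjusted p of 0.164), did not pass the test. *LRP1*, an endocytic receptor of thrombospondins, had the low control replicate 2 seen in *FN1*, with 825, 546 and 790 CPM in control and 571, 605 and 594 CPM in 4-OHT libraries, so the groups overlapped (-0.29, adjusted p of 0.118, edgeR), and without that library it was -0.45 with an adjusted p of 1.68e-08. Over the 16 alternative settings the log2 fold change of *LRP1* ranged from -0.45 to -0.18, and only 2 settings called it.

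Because *CCN1* and *CCN2* are known YAP targets, 20 other genes of a YAP and TEAD target list were examined, and all 20 were tested. With edgeR, 7 were lower and 1 higher, against 2.76% and 2.95% of all genes, and the median log2 fold change was -0.11, beside -0.0020 over all genes. The lower DEGs were *NT5E*, *MYOF*, *FJX1*, *ASAP1*, *CRIM1*, *GADD45A* and *AXL*. *NT5E*, which encodes the ectonucleotidase CD73, was at 284, 296 and 277 CPM in control and 228, 198 and 214 CPM in 4-OHT libraries (log2 fold change -0.42, adjusted p of 4.68e-05, edgeR). *MYOF*, encoding the membrane repair protein myoferlin, was at 405, 355 and 397 CPM in control and 314, 300 and 307 CPM in 4-OHT libraries (-0.33, adjusted p of 0.0003, edgeR). In both genes every 4-OHT value lay below every control value. The calls of *NT5E*, *MYOF*, *FJX1*, *ASAP1* and *CRIM1* held in all 16 alternative settings, whereas *AXL* was lost without 4-OHT replicate 2 or 3, and *GADD45A* without control replicate 1 or any 1 of the 4-OHT replicates. The single higher DEG was *FOXF2*, a mesenchymal transcription factor (0.19, adjusted p of 0.0083, edgeR), lost without 4-OHT replicate 2. Other textbook targets of the list did not pass the test, among them *ANKRD1* (0.32, adjusted p of 0.288) and *AMOTL2* (-0.080, adjusted p of 0.291, edgeR).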

How the data were processed

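RNA-seq was performed by the authors in 6 libraries of MRC5 cells, 3 per group. Raw counts per gene were deposited by the authors, whose processing notes name Trim Galore, HISAT2 2.1.0, featureCounts 1.6.5 and GRCh38. The strand setting and the annotation release are not given in the sources used here. Identifiers were matched to GENCODE symbols, and genes with at least 10 summed counts were tested with edgeR 4.0.16 (R 4.3.3), using TMM scaling, the quasi-likelihood test and Benjamini-Hochberg adjustment over all 19072 genes. Intervals for fold changes are at 95% and not adjusted. The script was tested on simulated data. Merged exon lengths came from the count table, MANE Select transcripts from GENCODE, promoter sequences from RefSeq GRCh38.p14, and 9 of the 10 members had an entry.

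The members and gene lists were chosen with earlier results of these data known. The genes named were the 10 members, list genes past the threshold and those needed beside a small count, the 5 genes most like *FN1*, of which 1 is not reported here, and genes overlapping a member. Alternatives were DESeq2 1.42.0, limma-voom 3.58.1, RLE or upper-quartile factors, library totals, no filter or filterByExpr, a replicate block, a gene length correction, both together, and each library left out. TMM levels do not show a change shared by most genes. No member had a near-identical copy in another gene's transcripts (minimap2 2.31). For *CCN2*, *SPARC*, *TNC* and *THBS1*, overlapping antisense genes held below 0.1% of the member's counts.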

Additional observations from a re-analysis of the deposited data

How the results depend on the processing

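Of 160 values for the 10 genes under 16 alternatives each, 145 kept their direction and their side of the threshold, 9 lost and 3 gained a call and 3 changed sign. Those 3 were *THBS3* without control replicate 2 (-0.035) or 4-OHT replicate 3 (-0.012) and *TNC* without control replicate 1 (0.016), none past the threshold. With 1 library left out, the log2 fold change ranged from -0.035 to 0.036 for *THBS3* and from -0.18 to 0.016 for *TNC*, DEGs among all genes ranged from 533 to 1530, members called from 2 to 5, members higher from 1 to 2 and members lower from 0 to 3. Without control replicate 2 there were 1530 DEGs, of which 988 were shared with the 1090. In the same settings other matricellular genes called ranged from 2 to 4, receptors from 3 to 5 and YAP and TEAD targets from 5 to 11. With DESeq2 only 1 member was lower (*CCN1*), since *FN1* lost its call, and DEGs numbered 954. Without a filter on low counts there were 1601 DEGs. For the 32 other named genes, 450 of 512 values kept their side of the threshold, 48 lost and 14 gained a call, and none changed sign. With MANE Select lengths, chosen after seeing the data, 6 of the 10 genes kept their rank. With the replicate number as a block, DEGs numbered 985 and the same count of 4 members was called. The deviations of same-numbered libraries from their group means did not go together (correlations -0.014, -0.10 and -0.093). With 3 libraries per group, this check cannot decide whether same-numbered samples were paired. The cause of these changes was not tested. With 3 libraries per group, the intervals of *THBS2*, *THBS3* and *POSTN* include both 0 and small shifts in either direction, so a p above the threshold does not show that these genes were equal between the groups.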
